A study of Mus musculus with 6 samples.

Results

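Integrins, laminins and the glycoproteins that join laminin to the rest of the basement membrane form the attachment between a muscle cell and its surrounding matrix. The 32 genes described here were taken by symbol from the deposited table of 27179 gene IDs: 12 integrin alpha chains, 7 integrin beta chains, 5 laminin alpha, 3 laminin beta and 2 laminin gamma chains, both nidogens and perlecan (Hspg2). All 32 were found in the table, each as 1 row. RNA had been sequenced from primary satellite cells (muscle stem cells) taken from hindlimb muscle of C57BL/6 mice of WT genotype, called ageing in the labels without a stated age. MG53, also called TRIM72, is a muscle protein known for its part in repairing torn cell membranes. The cells were grown in DMEM with FBS and bFGF and then given recombinant human MG53 protein (rhMG53, 3 libraries) or bovine serum albumin, the vehicle (BSA, 3 libraries), for 72 h. The batch tag reads day 3 for every library. The submitters describe 3 biological replicates per group without saying which mouse or dish each came from, so p-values reflect variation among the libraries, which may partly be technical.

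The libraries held between 17374151 and 22738745 gene counts. They carried muscle genes at high levels: the differentiation factor Myog averaged 924.9 CPM with rhMG53 and 895.4 CPM with BSA, and embryonic myosin Myh3 20527 CPM with rhMG53 and 22392 CPM with BSA, while the satellite cell factor Pax7 averaged 8.44 CPM with rhMG53 and 10.03 CPM with BSA. CPM is the count scaled to 1e6 counts of a library total that was adjusted with TMM factors. Genes of differentiated muscle thus far exceeded Pax7 in cells labelled as satellite cells. In such bulk RNA fewer cells of a type and less RNA per cell cannot be told apart. Markers of fibroblasts and fibro-adipogenic cells, which also make matrix, summed to between 1171 and 1312 CPM in rhMG53 libraries and between 1059 and 1300 CPM in BSA libraries over 10 genes, most of it Col1a1 and Col3a1, with Pdgfra at 22.7 CPM with rhMG53 and 21.0 CPM with BSA. The 10 endothelial markers summed to between 7.57 and 9.54 CPM with rhMG53 and between 9.37 and 9.95 CPM with BSA, and the 7 leukocyte markers to between 6.43 and 10.03 CPM with rhMG53 and between 5.99 and 7.43 CPM with BSA, with Cd52 at 0 in every library. Of the leukocyte markers Itgam averaged 4.97 CPM with rhMG53 and 4.74 CPM with BSA. Lyz2 stood at 3.98 CPM in rhMG53 replicate 2 and between 0.565 and 0.858 CPM in the other libraries. The 7 pericyte and smooth muscle markers summed to between 242.9 and 297.2 CPM with rhMG53 and between 255.6 and 307.9 CPM with BSA, mainly Abcc9 and Pdgfrb, with Kcnj8 at 0 in every library. The 6 Schwann cell markers summed to between 156.3 and 207.1 CPM with rhMG53 and between 159.0 and 203.3 CPM with BSA, nearly all of it Erbb3, and Sox10 averaged 0.114 CPM with rhMG53 and 0.0188 CPM with BSA. The part of such cells in the results below was not tested.

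An integrin is a pair of an alpha and a beta chain that spans the plasma membrane, binds matrix outside and links to talin and the actin cytoskeleton inside. A laminin is a trimer of an alpha, a beta and a gamma chain that polymerises on the cell surface. Nidogens and perlecan connect this laminin network with collagen IV. In skeletal muscle the pair of Itga7 and Itgb1 is the main laminin-binding integrin, and laminins with the Lama2 chain dominate the basement membrane of mature fibres, and loss of either Itga7 or Lama2 causes muscle disease in humans and in mice.

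The beta chain genes span nearly the whole range of levels among the 32 genes. Promoter windows of the 3 most abundant and of the least abundant are printed here to show sequences at annotated starts of genes of such different levels. Each run is 300 bases long on the coding strand, 250 before and 50 after an annotated start, from RefSeq on GRCm38.p6: chr8:128685404-128685703 (plus strand) for Itgb1, chr16:33829415-33829714 (plus strand) for Itgb5, chr2:60722554-60722853 (minus strand) for Itgb6 and chr15:102231886-102232185 (minus strand) for Itgb7. Capitals mark matches on either strand to 3 motifs: the GC box GGGCGG, and CAGCTG and CACCTG, E-box sequences of the kind that myogenic factors can bind.
Itgb1: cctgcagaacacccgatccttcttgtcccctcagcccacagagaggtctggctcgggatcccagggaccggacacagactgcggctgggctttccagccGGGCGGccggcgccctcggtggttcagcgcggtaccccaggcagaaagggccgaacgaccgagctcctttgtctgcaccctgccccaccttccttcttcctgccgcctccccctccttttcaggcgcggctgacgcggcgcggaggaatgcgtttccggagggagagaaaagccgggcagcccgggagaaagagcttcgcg
Itgb5: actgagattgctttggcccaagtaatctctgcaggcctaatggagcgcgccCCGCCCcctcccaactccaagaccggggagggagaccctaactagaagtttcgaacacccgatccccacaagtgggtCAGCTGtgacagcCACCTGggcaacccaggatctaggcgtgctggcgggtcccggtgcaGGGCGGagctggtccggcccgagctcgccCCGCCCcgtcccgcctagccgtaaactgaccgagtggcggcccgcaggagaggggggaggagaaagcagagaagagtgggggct
Itgb6: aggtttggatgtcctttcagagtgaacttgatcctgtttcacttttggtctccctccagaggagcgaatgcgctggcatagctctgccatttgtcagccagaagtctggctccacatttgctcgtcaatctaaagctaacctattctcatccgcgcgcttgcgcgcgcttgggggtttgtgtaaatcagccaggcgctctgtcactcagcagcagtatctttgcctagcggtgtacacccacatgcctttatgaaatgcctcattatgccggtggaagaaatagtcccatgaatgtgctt
Itgb7: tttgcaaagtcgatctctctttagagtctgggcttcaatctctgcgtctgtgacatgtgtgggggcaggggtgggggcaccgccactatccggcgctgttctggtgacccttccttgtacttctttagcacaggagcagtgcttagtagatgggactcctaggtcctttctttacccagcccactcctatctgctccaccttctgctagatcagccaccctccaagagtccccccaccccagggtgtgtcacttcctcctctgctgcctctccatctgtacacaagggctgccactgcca
Itgb1 held 1 GC box and Itgb5 held 3, together with 1 CAGCTG and 1 CACCTG. No match to any of the 3 was found in the Itgb6 or Itgb7 window. The Itgb7 window lies inside the span of its gene (102215994 to 102233405). The sequence before the outer end of that span is not shown here. Among 32544 promoter windows of the same length, 35.9% held the GC box, 16.4% CAGCTG and 20.3% CACCTG. The table held promoters for 22 of the 32 genes.

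Levels between genes were compared per length, in TPM (counts divided by the exon length of the gene and scaled to the same sum in every library). Of the 32 genes, 7 averaged at least 100 TPM, 18 at least 10 TPM and 23 at least 1 TPM, and 9 were under 1 TPM. For scale, the median over all genes with a length was 2.26 TPM. Itgb1 led at 950.0 TPM over all 6 libraries, followed by Itga7 at 653.9 TPM, Hspg2 at 238.8 TPM, Lamb2 at 141.8 TPM, Nid1 at 141.1 TPM, Itga5 at 116.4 TPM and Itgb5 at 102.7 TPM. In that order of 32, the ranges over the 6 libraries of neighbouring genes overlapped for 24 of 31 pairs. The 7 steps at which they stood apart lay below Itgb1, Itga7, Hspg2, Lamc1, Nid2, Itga6 and Itgb3. Itga6 at 13.9 TPM stood well above the next gene, Lamb3, at 3.48 TPM, a step that divided an abundant set of 18 genes from a scarce set of 14. The same 10 genes led the order when the longest transcript, the mean transcript length or no length at all was used. With the longest transcript Itga7 stood first at 1048 TPM and Itgb1 second at 808.9 TPM, so the order of these 2 rests on the length chosen.

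**Figure D1:**
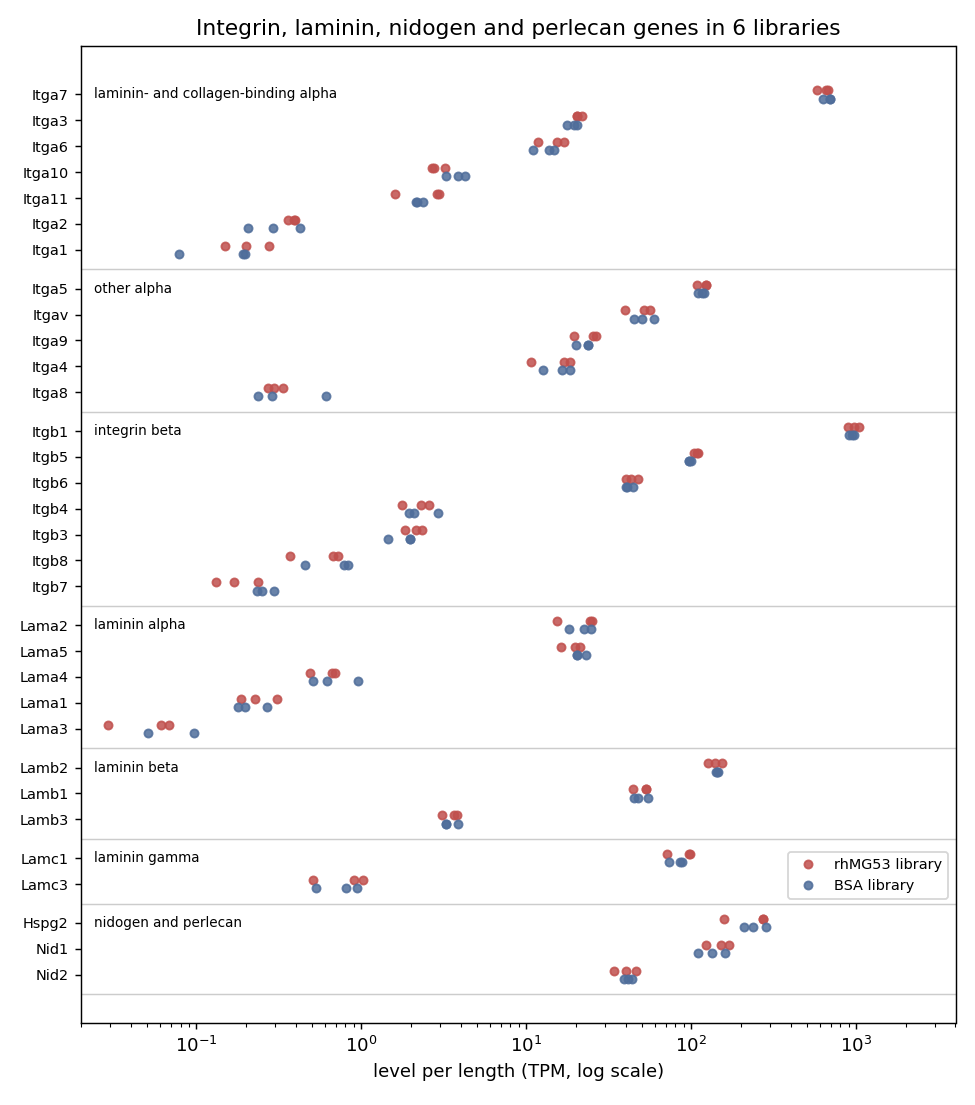
Levels per length (TPM, log scale) of the 32 genes, grouped by role and ordered by mean within each role; each point is 1 library, red for rhMG53 and blue for BSA. The points of both groups lie on top of each other for most genes while the genes themselves span from Lama3 at 0.0509 TPM to Itgb1 at 950.0 TPM; 1 BSA library with no Lama3 count is not drawn.

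Itga7 (gene ID 16404, chromosome 10, 128933421 to 128958286 in GRCm38, the assembly of mm10) made up most of the alpha chain RNA. On the TPM scale it held 72.0 ± 0.875% of the 12 alpha chains with rhMG53 and 73.4 ± 0.959% with BSA (SD, n = 3 each). With the longest transcript as the length, Itga7 held 80.8% over the 6 libraries. Itga5, the alpha chain of the classical fibronectin receptor, held 13.3 ± 0.236% with rhMG53 and 12.6 ± 0.867% with BSA, or 7.99% over the 6 libraries with the longest transcript as the length. Itgav followed with 5.56 ± 0.517% with rhMG53 and 5.61 ± 0.541% with BSA. The other laminin-binding alpha chains were far below Itga7: Itga3, best known from epithelia, averaged 20.0 TPM and Itga6 13.9 TPM. Itga7 exceeded Itga6 by 44.1 ± 5.58 times with rhMG53 and by 51.8 ± 5.87 times with BSA. Among the collagen-binding chains Itga10 averaged 3.33 TPM, Itga11 2.35 TPM, Itga2 0.343 TPM and Itga1 0.182 TPM. Collagen-binding integrins were thus the scarcest alpha chains together with Itga8, a partner of Itgb1 that binds nephronectin, at 0.339 TPM. The nephronectin gene Npnt, named after its values were seen, stood at 662.3, 557.0 and 632.8 CPM with rhMG53 and 614.9, 636.3 and 546.8 CPM with BSA.

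Itgb1 (gene ID 16412, chromosome 8, 128685654 to 128733579), the common partner of most of these alpha chains, held 86.0 ± 0.362% of the beta chain RNA on the TPM scale with rhMG53 and 86.6 ± 0.260% with BSA. The ratio of Itgb1 to the summed 12 alpha chains was 1.09 ± 0.0365 with rhMG53 and 1.02 ± 0.0247 with BSA. With the longest transcript as the length it was 0.646 ± 0.0206 with rhMG53 and 0.603 ± 0.0162 with BSA, so this ratio also rests on the length chosen. The groups overlapped with the union of exons and stood apart with the longest transcript, where the lowest rhMG53 value was 0.622 and the highest BSA value 0.621. Beta chains that pair with Itgav came next. Itgb5, a vitronectin receptor chain, held 9.64 ± 0.424% of the beta chain RNA with rhMG53 and 9.04 ± 0.318% with BSA, and Itgb6 held 3.88 ± 0.0698% with rhMG53 and 3.86 ± 0.0924% with BSA. Summed with the scarce Itgb3 and Itgb8, the Itgav partners exceeded Itgav itself 3.17 ± 0.445 times with rhMG53 and 2.79 ± 0.354 times with BSA.

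Itgb6 is known chiefly from epithelia, where its pair with Itgav activates latent TGF-beta. In these cultures Itgb6 stood at 98.7, 95.1 and 107.5 CPM with rhMG53 and at 101.6, 95.03 and 96.8 CPM with BSA, and the groups overlapped. The 6 epithelial markers (Krt5, Krt14, Krt8, Krt18, Epcam and Cdh1) were all under 1 CPM, summed to between 0.464 and 0.656 CPM with rhMG53 and between 0.452 and 0.619 CPM with BSA, and Krt14 was at 0 in every library. Per length Itgb6 exceeded Itgb3, the beta chain of platelets and bone-resorbing cells, 20.9 ± 2.14 times with rhMG53 and 23.7 ± 4.25 times with BSA. Itgb4, the partner of Itga6 in epithelial hemidesmosomes, averaged 2.27 TPM. Itgb8, another Itgav partner, averaged 0.638 TPM, and Itgb7, a leukocyte chain, had 2 to 4 counts in rhMG53 libraries and 4 to 6 counts in BSA libraries.

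**Figure D2:**
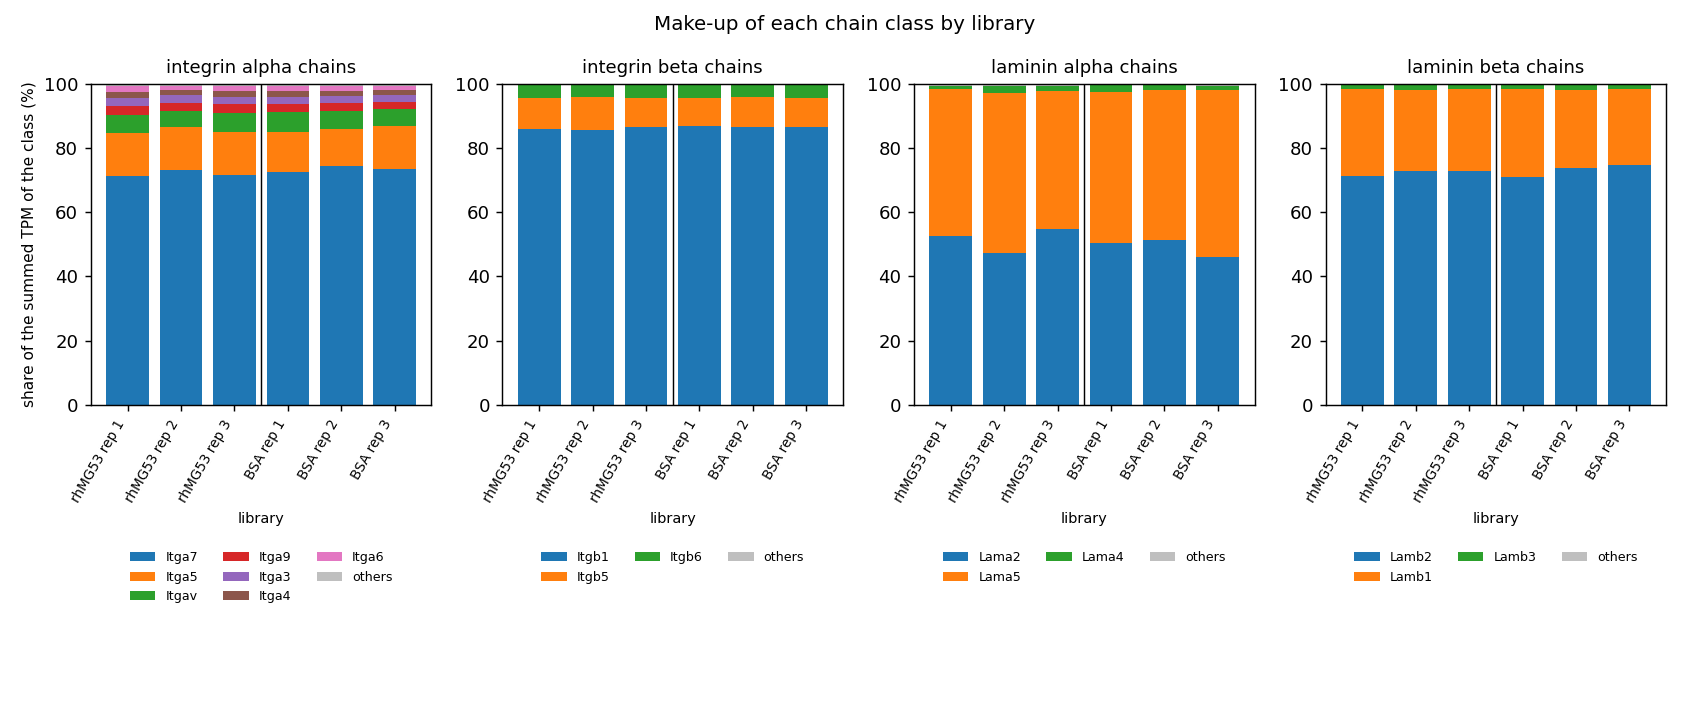
Share of each chain in the summed TPM of its class (%), 1 stacked bar per library, rhMG53 left of the black line and BSA right of it; chains under 1% on average are pooled as others. Itga7, Itgb1 and Lamb2 hold the largest share of their classes in all 6 libraries, and the bars of both groups look alike.

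Among the laminins, 2 alpha chains were present in similar amounts and the other 3 were scarce. Lama2 held 51.5 ± 3.94% of the laminin alpha RNA on the TPM scale with rhMG53 and 49.3 ± 2.67% with BSA. Lama5, which is made in embryonic muscle and many other tissues, held 46.2 ± 3.55% with rhMG53 and 48.6 ± 2.80% with BSA. With the longest transcript as the length, Lama2 held 62.6% and Lama5 34.7% over the 6 libraries, so their ratio depends on the transcript model. Lama4, known from blood vessels, averaged 0.655 TPM and Lama1, an early embryonic chain, 0.227 TPM. The epithelial chain Lama3 had between 2 and 4 counts in rhMG53 libraries and between 0 and 6 counts in BSA libraries. It was not tested for that reason, and neither was Itgb7.

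Lamb2, a beta chain that is concentrated at the neuromuscular junction in adult muscle, held 72.3 ± 0.864% of the laminin beta RNA on the TPM scale with rhMG53 and 73.2 ± 1.86% with BSA. Its paralog Lamb1 held 25.9 ± 1.07% with rhMG53 and 25.1 ± 1.95% with BSA. With the longest transcript as the length, Lamb2 held 63.0% and Lamb1 35.0% over the 6 libraries. Lamb3, a chain of epithelial laminin, averaged 3.48 TPM. Lamc1, the gamma chain of most laminins, held 99.1 ± 0.164% of the gamma RNA with rhMG53 and 99.1 ± 0.185% with BSA, and Lamc3 the rest. Per length (TPM), the chain classes that make a trimer were not at equal RNA levels. Summed alpha chains reached 0.464 ± 0.00991 of the summed gamma chains with rhMG53 and 0.529 ± 0.0223 with BSA, while summed beta chains reached 2.19 ± 0.224 times the gamma chains with rhMG53 and 2.37 ± 0.172 times with BSA. With the longest transcript as the length, the alpha ratio was 0.588 ± 0.0228 with rhMG53 and 0.663 ± 0.0287 with BSA. The beta ratio was then 2.52 ± 0.248 with rhMG53 and 2.72 ± 0.178 with BSA, so the size of both ratios rests on the length chosen. Nid1 exceeded Nid2 3.67 ± 0.104 times with rhMG53 and 3.23 ± 0.418 times with BSA.

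The libraries differed in how long and short genes stood. In rhMG53 replicate 2, log2 CPM minus the mean of the 6 libraries had a median of 0.11 over the 1572 tested genes with exon lengths up to 2 kb and of -0.13 over the 2426 genes longer than 8 kb. Over the same classes the medians were -0.059 and 0.086 in BSA replicate 1, and 0.025 and -0.066 in BSA replicate 3. The 32 genes are long, with a median exon length of 7250 bases against 4525 bases for tested genes. Their median deviation was 0.15, -0.19 and 0.085 in rhMG53 replicates 1 to 3 and 0.080, -0.015 and -0.099 in BSA replicates 1 to 3. Of the 30 tested members, 17 were lowest in rhMG53 replicate 2 and 0 were highest there, while 22.5% of all tested genes were lowest and 22.7% highest in that library. In that library the median deviation was -0.219 for the 13 members over 8 kb, -0.130 for the 9 of 6 to 8 kb and -0.079 for the 7 of 4 to 6 kb. All tested genes of these classes had -0.134, -0.050 and -0.003. The 1 member of 2 to 4 kb had 0.047, against 0.051 for its class. Hspg2, Lama2 and Itga4, with exon lengths of 14307, 16338 and 13978 bases, were 0.54, 0.44 and 0.48 below their own mean there on the log2 scale. What set this library apart was not tested.

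**Figure D3:**
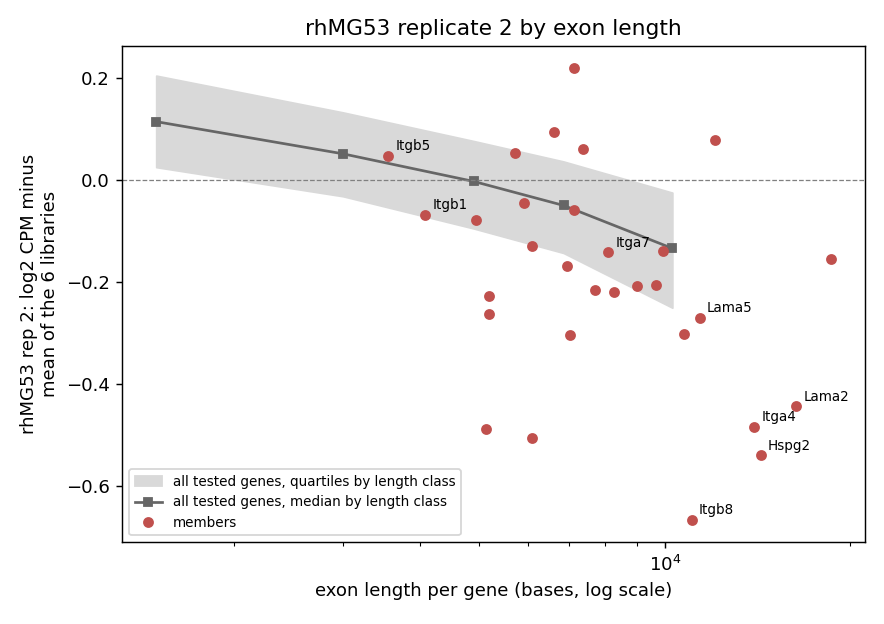
Deviation of rhMG53 replicate 2 from the mean of the 6 libraries (log2 CPM) against exon length (bases, log scale); red points are the 30 tested members, the grey line and band the median and quartiles of all tested genes by length class. The median of all tested genes is 0.11 up to 2 kb and -0.13 over 8 kb, and Hspg2, Lama2, Itga4 and Itgb8 are among the members below the band.

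**Figure D4:**
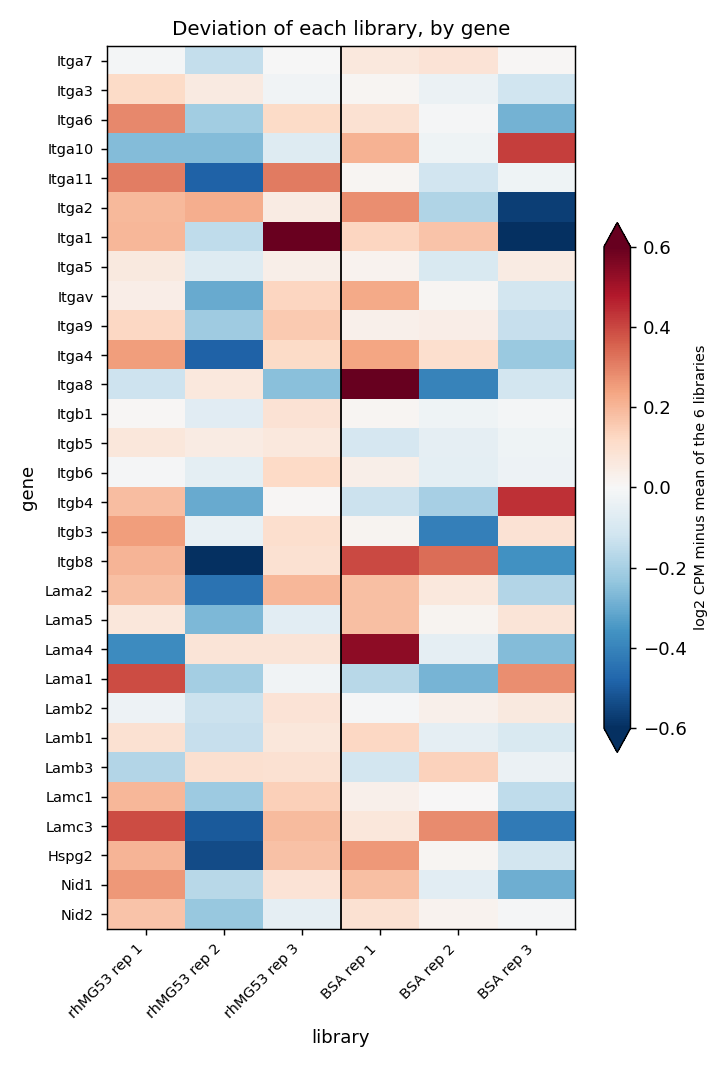
Deviation of each library from the mean of the 6 libraries (log2 CPM) for the 30 tested members, rhMG53 libraries left of the black line and BSA libraries right of it; red is higher, blue lower, and the scale ends at 0.6 in either direction. The column of rhMG53 replicate 2 is mostly blue, and no block of genes separates the groups.

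The comparison of rhMG53 with BSA asks whether the added protein changed these genes, and 0 of the 30 tested members passed edgeR's quasi-likelihood test at an adjusted p under 0.05, a threshold that 0.0218% of 13769 tested genes passed. Adjusted p over all genes was 0.940 to 0.998 for the members. At an unadjusted p under 0.05, 1 member was lower and 0 were higher, where 5.20% of all tested genes passed, 2.22% lower and 2.98% higher. DESeq2 also called 0 members, against 0.0363% of all genes, with 1 member at an unadjusted p under 0.05, against 2.67%. Limma voom called 0 members, against 0.0218%, with 2 at an unadjusted p under 0.05, against 5.16%. The median log2 fold change was 0.013 over the members and 0.001 over all tested genes, with 17 members above 0 and 13 below, where 50.5% of tested genes were above 0. For the 16 members of at least 50 CPM, fold changes lay between -0.17 and 0.12 on the log2 scale, 8 above 0 and 8 below, and their 95% intervals reached no further than -0.45 and 0.39, which correspond to 0.734-fold and 1.31-fold. A p that misses the threshold does not show that a gene was equal in both groups.

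**Figure D5:**
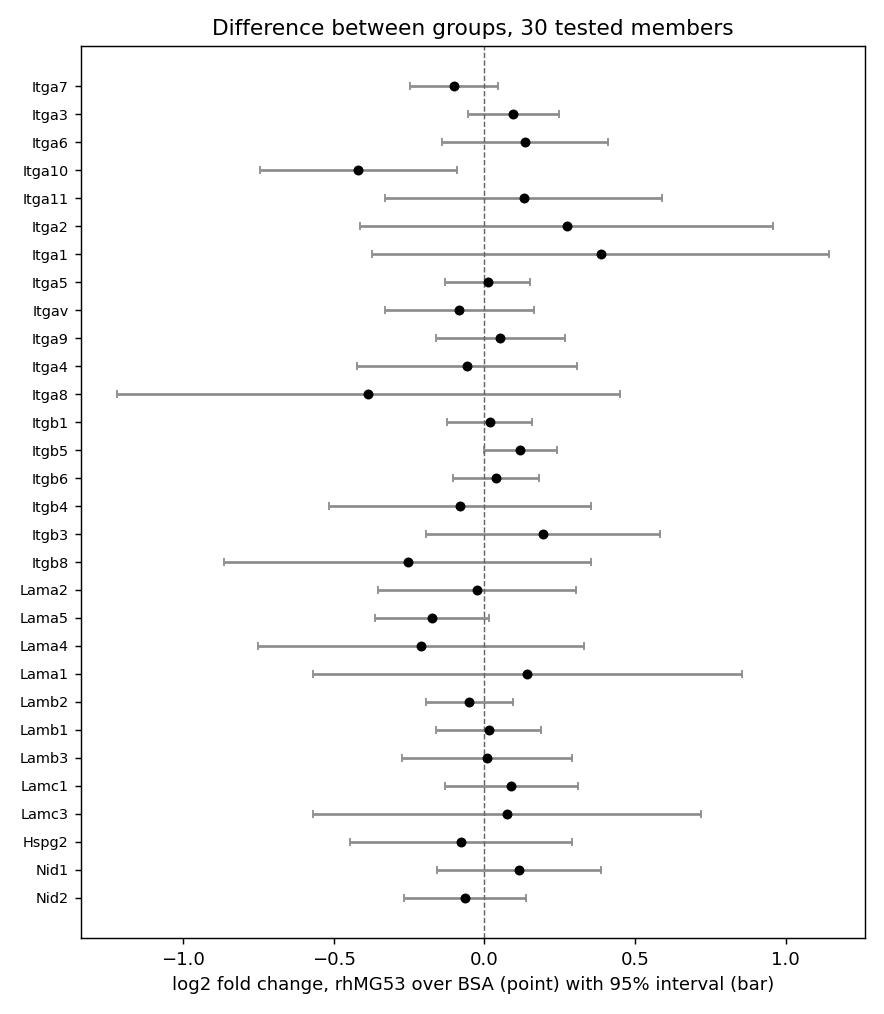
Log2 fold change of rhMG53 over BSA with its 95% interval for the 30 tested members, in the order of the level plot. Itga10 is the one gene whose interval does not reach 0, at -0.42, and it does not pass after adjustment over all tested genes; the widest intervals belong to genes near 1 CPM such as Itga8 and Itga1.

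The groups did not overlap in CPM for 3 of the 30 tested members, Itga7 and Itga10 lower and Itgb5 higher with rhMG53, where 10.8% of all tested genes had groups apart, 5.94% higher and 4.83% lower. Itga10, a collagen receptor chain known from cartilage, had 4.64, 4.63 and 5.27 CPM in rhMG53 libraries and 6.45, 5.48 and 7.48 CPM in BSA libraries. Its log2 fold change was -0.42 (SE 0.148, unadjusted p = 0.0166, edgeR adjusted p = 0.940), at 85 to 92 counts a library with rhMG53 and 97 to 146 with BSA. Without BSA replicate 3, its highest library, the log2 fold change was -0.31 and the unadjusted p no longer fell under 0.05. Exons of Itga10 share 1739 bases with the predicted gene Gm42957 on the same strand, so reads from the 2 cannot be told apart there. Itgb5 (gene ID 16419, chromosome 16, 33829665 to 33949338) had 125.2, 123.3 and 124.7 CPM in rhMG53 libraries and 111.2, 115.0 and 117.4 CPM in BSA libraries. Every rhMG53 library was above every BSA library, by 1.09-fold on average (log2 fold change 0.12, SE 0.0549, interval -0.002 to 0.24, edgeR adjusted p = 0.950). Itgb5 had the shortest exon length of the tested members, 3553 bases.

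Itga7 had 1716, 1568 and 1728 CPM in rhMG53 libraries and 1808, 1828 and 1738 CPM in BSA libraries. The groups stood apart by a small margin in CPM and overlapped in TPM, and the log2 fold change of -0.10 (SE 0.0668, interval -0.25 to 0.047) did not pass (edgeR adjusted p = 0.973). Its partner Itgb1 had 1273, 1209 and 1346 CPM in rhMG53 libraries and 1278, 1247 and 1256 CPM in BSA libraries. All BSA values of Itgb1 lay within the range of the rhMG53 values, and the log2 fold change was 0.018 (SE 0.0646, interval -0.12 to 0.16). Of 14 ratios between members or chain classes computed after the levels were seen, 2 had groups apart. For scale, 10.8% of single tested genes had groups apart in CPM, which is not a like measure for TPM ratios that share genes. The ratio of Itga7 to Itgb1 in TPM was 0.680, 0.654 and 0.647 with rhMG53 and 0.713, 0.739 and 0.698 with BSA, and the ratio of laminin alpha to gamma chains was 0.468, 0.453 and 0.471 with rhMG53 and 0.5496, 0.505 and 0.531 with BSA. The laminin ratio also stood apart with the longest transcript as the length. For Itga7 to Itgb1 another length scales every library alike, so it cannot change whether the groups overlap. The summed TPM of the Itgav partners Itgb3, Itgb5, Itgb6 and Itgb8 was 154.7, 146.4 and 160.5 with rhMG53 and 143.8, 142.5 and 139.7 with BSA, most of it Itgb5. No test was made of these ratios and sums.

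None of the receptor chains for fibronectin and related ligands that follow passed with all 6 libraries, and their groups overlapped. Itga5 (gene ID 16402, chromosome 15, 103344286 to 103366791) had 195.6, 177.8 and 192.5 CPM in rhMG53 libraries and 190.7, 176.2 and 194.5 CPM in BSA libraries (log2 fold change 0.011, interval -0.13 to 0.15). Itgav, which pairs with several beta chains, had 181.0, 142.7 and 192.7 CPM with rhMG53 and 206.2, 177.1 and 163.1 CPM with BSA (-0.083, interval -0.33 to 0.17). Both sets of values overlapped. Itga4, a receptor chain for fibronectin and for VCAM-1, had 83.3, 50.02 and 75.8 CPM with rhMG53 and 82.5, 75.03 and 59.999 CPM with BSA (-0.058, interval -0.42 to 0.31), and its exons share 1124 bases with Cerkl on the opposite strand. Itga9, which binds tenascin C and osteopontin, had 63.0, 49.8 and 64.5 CPM with rhMG53 and 59.0, 59.4 and 52.5 CPM with BSA (0.053, interval -0.16 to 0.27). In Itgav, Itga4 and Itga9 the lowest value of all 6 was that of rhMG53 replicate 2. For Itgb6 the log2 fold change was 0.038 (interval -0.11 to 0.18).

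Perlecan, a large heparan sulfate proteoglycan, had the largest standard error among the members of at least 50 CPM. Hspg2 (gene ID 15530, chromosome 4, 137468751 to 137570630) had 1262, 754.9 and 1240 CPM in rhMG53 libraries and 1313, 1108 and 1015 CPM in BSA libraries. A single rhMG53 library lay below all others, and the other 2 lay inside the BSA range. The log2 fold change was -0.077 (SE 0.168, interval -0.45 to 0.29) with all libraries and 0.13 (SE 0.0953) without rhMG53 replicate 2. Lama2 (gene ID 16773, chromosome 10, 26981285 to 27617191) had 129.2, 83.9 and 130.8 CPM with rhMG53 and 129.4, 119.2 and 100.9 CPM with BSA. It showed the same low library, with a log2 fold change of -0.024 (SE 0.149) with all libraries and 0.16 (SE 0.0905) without that one. Leaving out each library in turn gave -0.20 to 0.13 for Hspg2 and -0.13 to 0.16 for Lama2. Neither gene passed in any of these fits.

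Lama5 had 78.3, 62.0 and 71.5 CPM in rhMG53 libraries and 84.7, 75.5 and 78.8 CPM in BSA libraries. Only rhMG53 replicate 1 reached into the BSA range, and the log2 fold change of -0.17 (SE 0.0857, interval -0.36 to 0.014) did not pass (edgeR adjusted p = 0.965), with -0.26 to -0.090 in the fits that lacked 1 library. Lamb1 had 171.1, 145.9 and 168.6 CPM with rhMG53 and 175.2, 154.6 and 151.0 CPM with BSA (0.014, interval -0.16 to 0.19). Lamb2 had 275.9, 257.4 and 298.2 CPM with rhMG53 and 280.2, 287.6 and 293.3 CPM with BSA (-0.050, interval -0.20 to 0.094). Both laminin beta genes overlapped between groups. Lamc1 (gene ID 226519, chromosome 1, 153218922 to 153332786) had 263.6, 197.5 and 253.8 CPM with rhMG53 and 234.8, 230.3 and 206.6 CPM with BSA. Here 2 rhMG53 libraries were the highest of all 6 and the other was the lowest, and the log2 fold change was 0.090 (SE 0.100) with all libraries and 0.21 (SE 0.0684, unadjusted p = 0.0113, edgeR adjusted p = 0.950) without rhMG53 replicate 2. It was 0.010 without rhMG53 replicate 1, 0.040 without rhMG53 replicate 3 and 0.035 without BSA replicate 3.

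Nid1, the more abundant nidogen, had 380.0, 282.3 and 336.0 CPM in rhMG53 libraries and 359.5, 303.2 and 259.0 CPM in BSA libraries (0.11, interval -0.16 to 0.39), and leaving out each library in turn gave 0.005 to 0.24. Nid2 had 77.6, 58.8 and 66.2 CPM with rhMG53 and 73.4, 69.9 and 68.6 CPM with BSA (-0.065, interval -0.27 to 0.14). Both nidogens overlapped between groups, and exons of Nid2 share 437 bases with Rtraf on the opposite strand. Without rhMG53 replicate 2, 5 members had an unadjusted p under 0.05, where 5.24% of 13962 tested genes did, and 0 passed after adjustment, where 0.0143% did. These were Lamc1, Itga6 (0.26), Itga9 (0.16) and Itga11 (0.35) above 0 and Itga10 (-0.39) below. Without rhMG53 replicate 1 in its place, Itga6 stood at 0.017, Itga11 at -0.002 and Itga10 at -0.39, and without BSA replicate 3 Itga6 stood at 0.035 and Itga9 at -0.003.

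The 13 tested members under 50 CPM other than Itga10 had log2 fold changes between -0.39 and 0.39 and overlapping groups. Itga3 and Itga6 were the most abundant of them, with Itga3 at 38.6 ± 1.83 CPM with rhMG53 and 36.1 ± 1.68 CPM with BSA and Itga6 at 42.9 ± 7.26 CPM with rhMG53 and 39.0 ± 5.10 CPM with BSA (SD, n = 3 each). Lamb3, Itgb4, Itgb3, Itga11, Lama4, Itgb8 and Lamc3 lay between 1 and 10 CPM, and Itga1, Itga8, Itga2 and Lama1 near or under 1 CPM. In the last 4 the log2 intervals were wide, -1.22 to 0.45 for Itga8 and -0.37 to 1.14 for Itga1, so that even sizeable differences could be missed. Counts there were low and also uneven between libraries. Itga8 had 33, 10 and 13 counts in BSA replicates 1 to 3, and Itga1 had 26, 21 and 9. By role, the laminin- and collagen-binding alpha chains counted 5 members above 0 and 2 below, the other alpha chains 2 and 3, the beta chains 4 and 2, the laminin alpha chains 1 and 3, the laminin beta chains 2 and 1, the laminin gamma chains 2 and 0, and nidogens with perlecan 1 and 2.

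Genes that work with these receptors and matrix proteins were followed in 4 lists. Of the adhesion machinery that binds integrin tails, 33 of 34 genes were tested, with 16 above 0 and 17 below (median log2 fold change -0.007). Flnc, muscle filamin, had 2378, 1582 and 2372 CPM with rhMG53 and 2395, 2293 and 1947 CPM with BSA, and Tln1, the integrin-activating talin, had 607.4, 449.7 and 592.3 CPM with rhMG53 and 596.5, 566.2 and 543.2 CPM with BSA. In both, rhMG53 replicate 2 was again the lowest. Apbb1ip, which brings talin to integrins in leukocytes, had 15.8, 15.5 and 16.3 CPM with rhMG53 and 12.5, 12.5 and 13.8 CPM with BSA (log2 fold change 0.30, SE 0.0867, edgeR adjusted p = 0.935), and the kinase gene Src had a log2 fold change of 0.14.

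Of the other basement membrane components 19 of 21 were tested, with 13 above 0 and 6 below (median 0.067). Sparc, a collagen-binding glycoprotein, stood at 1035, 974.9 and 1056 CPM with rhMG53 and 963.2, 991.0 and 1044 CPM with BSA. Fbln2, a fibulin that binds laminins and nidogen, had 756.5, 636.6 and 710.1 CPM with rhMG53 and 620.7, 560.1 and 598.9 CPM with BSA (0.24, SE 0.0754, edgeR adjusted p = 0.935). Tinagl1, a matricellular protein, had 12.2, 10.6 and 10.1 CPM with rhMG53 and 7.16, 4.58 and 8.69 CPM with BSA (0.69, SE 0.187, edgeR adjusted p = 0.935). Both of the last 2 were higher in every rhMG53 library than in any BSA library, as were 5.94% of all tested genes, and neither passed.

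Among other matrix receptors and tetraspanins all 14 were tested, with 6 above 0 and 8 below (median -0.013). The glypican gene Gpc1 and the dystroglycan gene Dag1, which encodes the other main laminin receptor of muscle, were the most abundant: Dag1 had 1148, 931.7 and 1132 CPM with rhMG53 and 1115, 1189 and 1048 CPM with BSA (-0.062), and Gpc1 a log2 fold change of -0.014. Cd44, the hyaluronan receptor, had 121.2, 114.9 and 120.7 CPM with rhMG53 and 114.0, 101.0 and 96.8 CPM with BSA (0.19, edgeR adjusted p = 0.940), and Sdc4 a log2 fold change of -0.099. Of the other integrin ligands 15 of 16 were tested, with 11 above 0 and 4 below (median 0.057). Fn1, fibronectin, had 3091, 1949 and 2860 CPM with rhMG53 and 2972, 2509 and 2125 CPM with BSA (0.055), and osteopontin, Spp1, a log2 fold change of -0.089. Emilin1 (0.24) and Ccn2 (0.24) had the smallest p in that list. None of the 4 lists held a gene called by edgeR, DESeq2 or limma voom. At an unadjusted p under 0.05, edgeR and limma voom each had 1 of 33 adhesion genes, 2 of 19 basement membrane genes, 1 of 14 receptors and 1 of 15 ligands, where 5.20% (edgeR) and 5.16% (limma voom) of all tested genes passed. DESeq2 had the same numbers except 2 of 15 ligands, where 2.67% of all tested genes passed.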

How the data were processed

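RNA of 6 libraries was measured, 3 with rhMG53 and 3 with BSA. The authors deposited whole-number counts per NCBI gene ID and library, not normalised. Per the submitters' processing notes, the tools included STAR, featureCounts and edgeR and the build was mm10. For versions, annotation, strand setting and reads with several matches, the sources used here give nothing. Exons of 12 members share bases with exons of another gene in GENCODE, 10 of them with a gene on the opposite strand, so their reads may not be separable. Per the labels' protocols the library kit was directional with poly(A) selection.

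The members, lists and tests were chosen with earlier results of these data known. IDs were named through RefSeq (GRCm38.p6), 25275 of 27179, and GENCODE, 18 more. Genes were kept with filterByExpr (minimum count 10, minimum total 15; 13769 genes), scaled with TMM and compared by the quasi-likelihood test of edgeR 4.0.16 (R 4.3.3), with treatment as the only term. P-values were adjusted by Benjamini and Hochberg's method over the kept genes. SE is the log2 fold change divided by the square root of F. TPM uses the union of GENCODE exons (21572 IDs, and 1.84% to 2.45% of counts lie in IDs without a length). The fit was tested on simulated counts. It recovered 28% of genes changed 1.25-fold, 62.7% at 1.5-fold, 82.7% at 2-fold and 96% at 3-fold. Of its calls there 7.55% were false, at an adjusted p under 0.05. The changed genes, 150 per fold in all, were picked from all tested genes whatever their level. The simulated counts carried no shift between libraries by exon length. More genes were changed there than the 3 called in the data, which makes the adjusted threshold easier to pass. These shares therefore do not give the power for the members. Libraries held 17374151 to 22738745 counts. Values in every library are given for members of at least 50 CPM or an unadjusted p under 0.05. Of other lists the 2 most abundant genes and the 2 of smallest p are named.

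Alternatives were RLE, upper quartile and library size scaling, other filters, DESeq2 1.42.0, limma voom (limma 3.58.1), robust moderation, stricter thresholds, the replicate number as a term, leaving out each library, and other lengths. Both alternatives that remove a loess trend on exon length (span 0.5), without and with the replicate number as a term, were chosen after seeing the data.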

Additional observations from a re-analysis of the deposited data

How the results depend on the processing

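No member passed an adjusted p under 0.05 in any fit, the lowest adjusted p being 0.730. The number of all genes called was 3, and became 6 without a filter on low counts, 5 with DESeq2, 0 with the replicate block, 0 when a log2 fold change of at least 1 was also required, and 0 to 4 when 1 library was left out, 0 being without BSA replicate 2; the cause was not tested. Members at an unadjusted p under 0.05 numbered 1, and 2 with upper quartile factors, library size alone, no filter, a mean of at least 5 CPM, limma voom, robust moderation, the replicate block, the length trend removed, or both of the last together, and 0 to 5 when 1 library was left out, 0 being without BSA replicate 3, 2 without rhMG53 replicate 1 and 5 without rhMG53 replicate 2. Lama2 turned to 0.016 with the length trend removed and to 0.009 with the replicate block added to it. The median over the members ranged from -0.038 to 0.089 when 1 library was left out. In those fits 12 members kept their sign and 18 did not, with log2 fold changes of Itga11 -0.002 to 0.35, Itga4 -0.21 to 0.13, Itga5 -0.030 to 0.052, Itga8 -0.62 to 0.17, Itga9 -0.016 to 0.16, Itgav -0.17 to 0.035, Itgb1 -0.025 to 0.055, Itgb4 -0.21 to 0.14, Itgb6 -0.016 to 0.075, Lama1 -0.083 to 0.34, Lama2 -0.13 to 0.16, Lama4 -0.37 to 0.094, Lamb1 -0.028 to 0.084, Lamb2 -0.11 to 0.000, Lamb3 -0.046 to 0.097, Lamc3 -0.14 to 0.31, Nid2 -0.18 to 0.026, Hspg2 -0.20 to 0.13. The 12 that kept it had Itga1 0.096 to 0.57, Itga2 0.074 to 0.59, Itga3 0.060 to 0.13, Itga6 0.017 to 0.26, Itga7 -0.13 to -0.057, Itga10 -0.52 to -0.31, Itgb3 0.061 to 0.28, Itgb5 0.099 to 0.14, Itgb8 -0.46 to -0.021, Lama5 -0.26 to -0.090, Lamc1 0.010 to 0.21, Nid1 0.005 to 0.24.

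For samples with the same replicate number, deviations from the group means correlated at 0.19, -0.13 and -0.15. The highest correlation was that of rhMG53 replicate 2 with BSA replicate 3 (0.30). These values also carry differences between whole libraries, such as that by exon length. They therefore cannot tell whether samples of the same number share a mouse or dish. Counts were lowest, and so counting error largest, for the 9 members under 1 TPM.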
